A study of Mus musculus with 12 samples.

Results

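The transcriptome of cardiomyocytes treated with hlOSM was compared directly with that of cardiomyocytes treated with mLIF, over every gene whose normalized count reached 10 in 3 or more of the 12 samples. This rule kept 13184 of the 22915 genes in the deposited table, and 11831 of them were protein-coding. The comparison rested on 3 hlOSM and 3 mLIF samples, with 3 samples each of PBS and mOSM at the side. All samples were primary cardiomyocytes of male C57/Bl6 mice aged 12 weeks, kept for 24 h in normoxia with a recombinant cytokine at 25 ng/mL, the dose in the sample labels, or with an equal volume of PBS. The methods of the study give a lower dose. Murine LIF (mLIF) signals through LIFR in mouse cells and murine OSM (mOSM) through OSMR. In hlOSM, the AB loop of murine OSM is replaced by the human one, so that the protein engages OSMR as well as LIFR. The comparison therefore asks what differs when a ligand of both receptors takes the place of a ligand of LIFR alone, although mLIF and hlOSM are also different proteins.

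OSMR and LIFR both form signaling complexes with gp130, the shared chain encoded by Il6st. Ligand binding activates the Janus kinases bound to the receptor tails, which phosphorylate STAT transcription factors, and the ERK and PI3K cascades are engaged as well. SOCS3, itself a STAT target, binds gp130 and JAKs and limits the signal. In adult cardiomyocytes, OSM is known for inducing dedifferentiation and the release of secreted proteins, and LIF for cytoprotective and hypertrophic signaling.

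The normalized counts of a sample summed to between 2745748 and 2911891. These values are not numbers of reads and are not divided by gene length, so levels are compared within a gene only. The median log2 difference over all tested genes was −0.01. Neither the labels nor the methods state whether the 3 samples of a condition came from separate cell preparations, and p-values then measure the spread between these samples, which may be technical. Among the genes higher with hlOSM, hlOSM replicate 3 alone held the highest of its 3 values in 62.7%, against 46.0% over all tested genes. Without it, 706 genes were higher and 1133 lower.

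With hlOSM, 978 genes were higher than with mLIF (7.42% of those tested) and 1216 were lower (9.22%). This makes 2194 DEG (16.6%) by limma at an adjusted p under 0.05, in a fit that ignored replicate numbers. A fit that included them gave 724 higher and 878 lower genes. In the deposited values, differences between replicate numbers hardly varied from gene to gene once averaged over conditions. The p-values of the first fit may therefore be too small. Its DEG counts and shares are used below unless another fit is named. The typical difference was modest, with a median log2 difference of 0.49 among the higher and −0.49 among the lower genes. At least 2-fold differences were found in 182 higher and 185 lower genes, and at least 4-fold differences in 42 and 19. The hlOSM samples all lay above the mLIF samples in 1922 genes (14.6% of those tested) and all below them in 2257 (17.1%), so that the 2 conditions did not overlap in 4179 genes (31.7%). Of the DEG, 959 of the 978 higher and 1180 of the 1216 lower genes were free of overlap. In the plot of difference against level, every DEG with at least a 4-fold difference had a mean normalized count of at most 177.

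**Figure D1:**
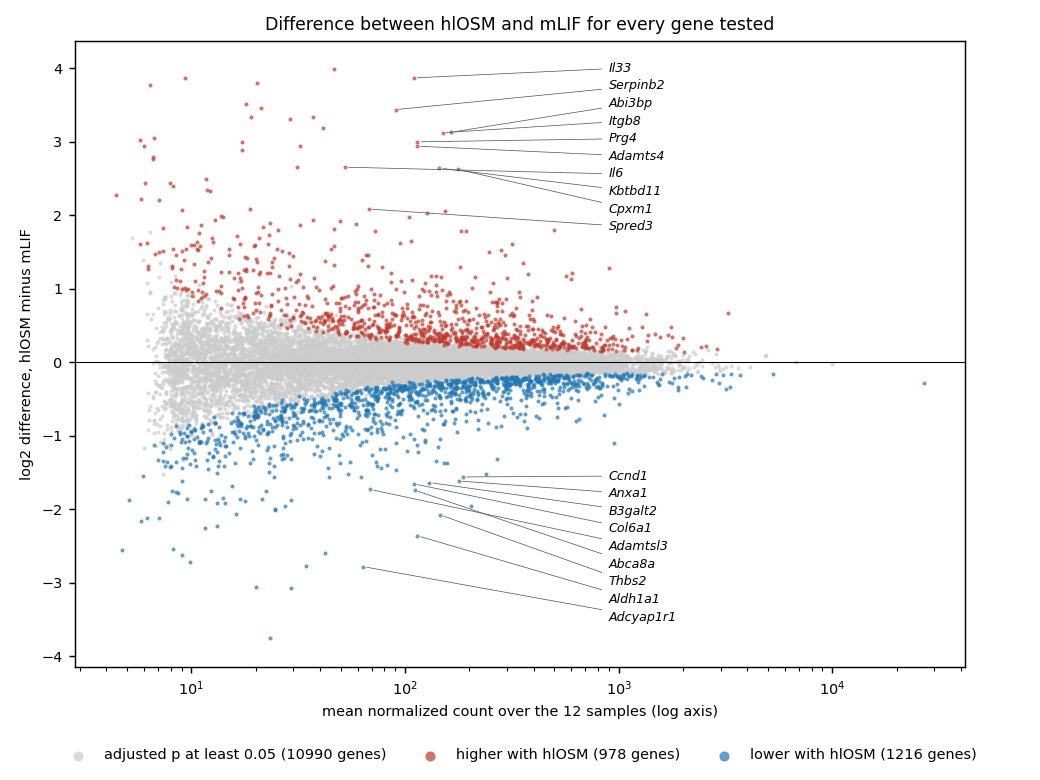
Log2 difference between hlOSM and mLIF (vertical axis) against the mean normalized count over the 12 samples (horizontal log axis) for the 13184 genes tested, 1 point per gene. Red points are the 978 genes higher with hlOSM, blue points the 1216 lower ones and grey points the rest, and protein-coding genes of the text among the 10 largest differences in each direction at a mean of at least 50 are named.

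Among the higher genes with a mean of at least 50, Il33 had the largest difference. Il33, which encodes an alarmin of the IL-1 family (chr19:29925114-29960718, plus strand, mm10), read 7, 18 and 18 with mLIF and 196, 173 and 261 with hlOSM, a 14.6-fold difference (log2 3.87 ± 0.34, SE; adjusted p = 2.85e-08). PBS samples were at 11, 5 and 2 and mOSM samples at 198, 183 and 251, so that hlOSM and mOSM overlapped and both stood far above mLIF. Abi3bp, a secreted protein of the extracellular matrix (chr16:56477878-56690135), held 35, 35 and 28 with mLIF and 288, 293 and 294 with hlOSM (log2 3.13 ± 0.12, adjusted p = 3.63e-14). Itgb8, the integrin β8 subunit that pairs with αv and binds latent TGF-β (chr12:119158022-119238802), rose from 32, 27 and 30 to 242, 241 and 320 (log2 3.12 ± 0.12, adjusted p = 3.63e-14). Its mLIF samples overlapped the PBS samples at 26, 30 and 23. Adamts4, a protease that cleaves aggrecan, was at 30, 25 and 23 with mLIF and at 177, 186 and 261 with hlOSM (log2 2.94 ± 0.15, adjusted p = 4.91e-12). These 4 genes were taken from those without overlap of hlOSM and mLIF samples, so that their separation follows from the choice.

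The same direction was found in Serpinb2, the plasminogen activator inhibitor PAI-2, with 14, 11 and 16 in mLIF and 126, 191 and 158 in hlOSM (log2 3.44 ± 0.22, adjusted p = 2.58e-10). Prg4, which encodes the lubricating proteoglycan lubricin, gave 21, 25 and 25 and 267, 131 and 213. The log2 difference was 3.00 ± 0.23, and the hlOSM samples spread from 131 to 267. Kbtbd11, a Kelch and BTB domain protein, was at 37, 42 and 56 and 256, 216 and 403 (log2 2.64 ± 0.27), and Cpxm1, a secreted carboxypeptidase-like protein, at 50, 53 and 47 and 268, 274 and 417 (log2 2.62 ± 0.17). These 2 genes also passed the threshold with mLIF against PBS, at log2 2.26 ± 0.27 and 1.21 ± 0.17, so that the mLIF level itself exceeded that of PBS. The same held for Il33 (log2 1.25), Abi3bp (0.62), Adamts4 (0.85) and Serpinb2 (0.87) above and for Spred3 (1.15) below. Itgb8 and Prg4 did not pass with mLIF against PBS. Spred3, a Sprouty-related inhibitor of ERK signaling, was with Il6 among the 10 largest at a mean of at least 50, at 35, 28 and 25 with mLIF and 102, 113 and 175 with hlOSM (log2 2.08 ± 0.18). Chst11, a chondroitin 4-O-sulfotransferase, was among the 5 higher genes with the smallest adjusted p (74, 93 and 79 against 297, 255 and 302, log2 1.79 ± 0.09, adjusted p = 8.46e-12). Among the most abundant genes with at least a 2-fold difference, Thbd, the endothelial anticoagulant thrombomodulin, read 240, 236 and 291 with mLIF and 773, 772 and 1157 with hlOSM (log2 1.79 ± 0.18), and Star, which carries cholesterol into mitochondria, 623, 513 and 711 and 1188, 1468 and 1868 (log2 1.28 ± 0.22). In both, hlOSM replicate 3 was the highest sample and every hlOSM sample lay above every mLIF sample.

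Among the genes lower with hlOSM at a mean of at least 50, Adcyap1r1, the G protein-coupled receptor for PACAP (chr6:55451978-55501451), differed most. It read 116, 96 and 109 with mLIF and 16, 14 and 14 with hlOSM, a 6.89-fold lower level (log2 −2.78 ± 0.14, adjusted p = 4.91e-12). Its mLIF samples overlapped the PBS samples (106, 126 and 122), and mOSM was as low as hlOSM at 14, 16 and 17. Thbs2, the matricellular protein thrombospondin-2 (chr17:14665500-14694235), was at 215, 243 and 233 with mLIF and at 53, 53 and 55 with hlOSM (log2 −2.08 ± 0.10, adjusted p = 4.91e-12). Ccnd1, cyclin D1 of the G1 phase (chr7:144929931-144939925), was at 278, 256 and 291 and 90, 84 and 104 (log2 −1.56 ± 0.09, adjusted p = 9.07e-11). In these 3 genes mLIF did not differ from PBS by the threshold and hlOSM was lower by at least 2.95-fold.

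A graded order was seen in B3galt2, a galactosyltransferase, with 224, 252 and 254 in PBS, 183, 151 and 139 in mLIF and 47, 50 and 52 in hlOSM (log2 −1.64 ± 0.11 against mLIF), and in Anxa1, the phospholipid-binding annexin A1, with 296, 285 and 409, 247, 240 and 230 and 76, 84 and 72 (log2 −1.62 ± 0.11). In both genes mLIF was also a DEG against PBS. Abca8a, a lipid transporter of the ABC family, read 163, 182 and 170 with mLIF and 48, 56 and 48 with hlOSM (log2 −1.74 ± 0.11), and Adamtsl3, an ADAMTS-like matrix protein, 92, 92 and 110 and 32, 32 and 23 (log2 −1.73 ± 0.14). Akap12, a scaffold of protein kinase A, was at 346, 316 and 407 and 163, 167 and 105 (log2 −1.31 ± 0.14). None of these genes had an hlOSM sample within the mLIF range, as the rule for the largest differences required of all but Akap12. Exons of other genes cover part of the exonic bases of some genes named here, which leaves their counts uncertain. On the same strand the share is 18.8% for Spp1, 17.4% for Pfkfb2 and 12.4% for Serpinb2. On the other strand it is 67.9% for Tagln, 64.7% for Pln, 24.8% for Kbtbd11, 23.4% for Ccnd1 and 23.2% for Ccn2, and smaller for Bhlhe41, Cxcl16, Selp, Adamts9 and Cish.

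**Figure D2:**
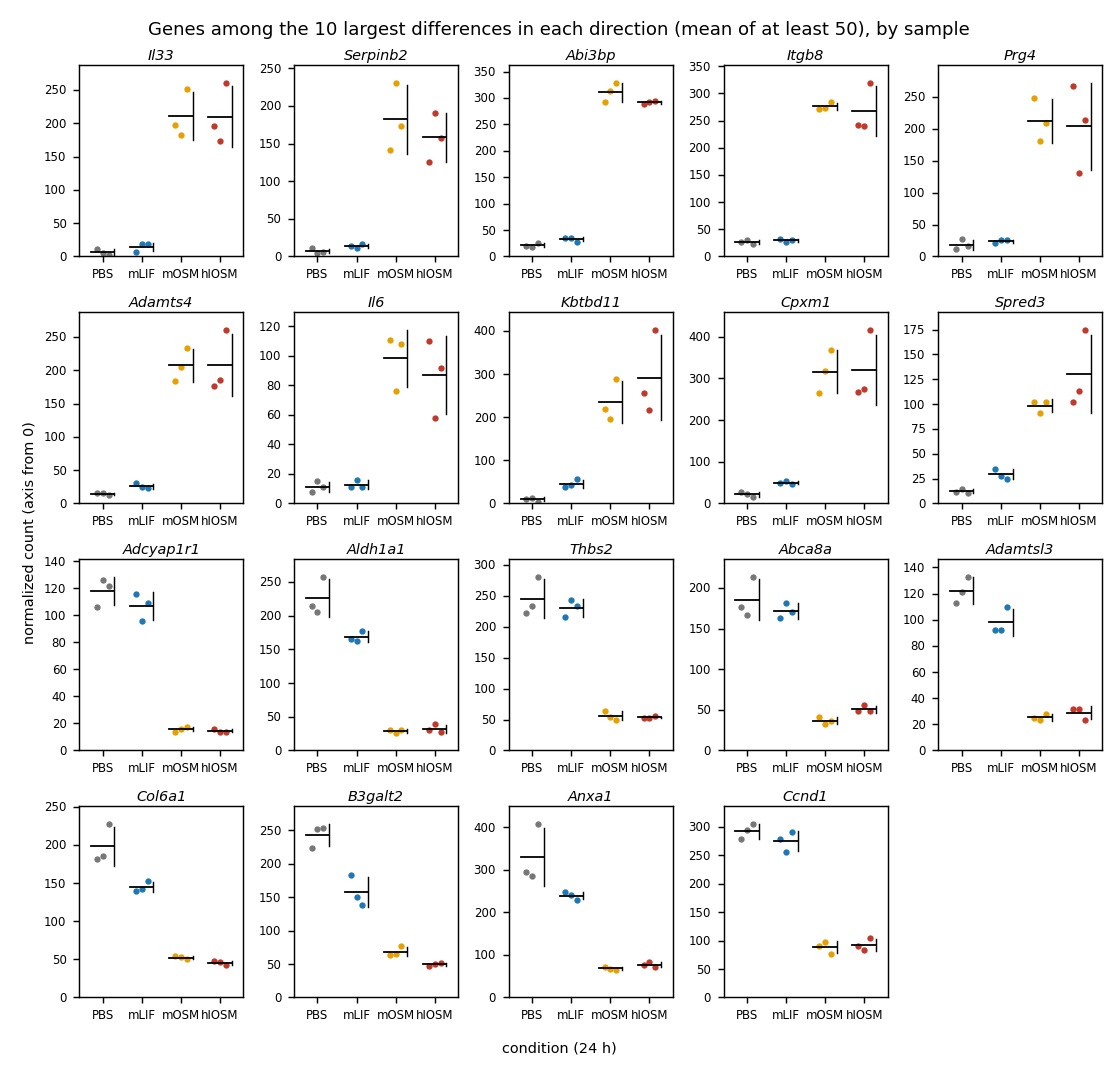
Normalized counts (vertical axes, from 0) of the genes of the text among the 10 largest differences in each direction at a mean of at least 50 in PBS, mLIF, mOSM and hlOSM, with 1 point per sample, the mean as a line and the SD as a vertical bar (n = 3). The genes were chosen without overlap of hlOSM and mLIF samples, so that the distance between these points follows from the choice. In every panel mOSM points lie nearer to those of hlOSM than to those of mLIF. They overlap with hlOSM for Il33, with 198, 183 and 251 in mOSM and 196, 173 and 261 in hlOSM. In B3galt2, Abca8a and Col6a1 the mOSM and hlOSM points do not overlap, as for B3galt2 with 64, 65 and 77 against 47, 50 and 52.

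Of 6 tested IL-6 family ligand genes 4 were higher and 0 lower, with a median log2 difference of 0.98 in the list against −0.01 over all genes. Il6 read 11, 16 and 11 with mLIF and 110, 58 and 92 with hlOSM (log2 2.65 ± 0.23, adjusted p = 2.54e-08). Clcf1, a ligand of the CNTF receptor complex, was at 52, 54 and 59 and 124, 111 and 155 (log2 1.21 ± 0.12), and Lif, which encodes the ligand of LIFR itself, at 61, 72 and 70 and 131, 112 and 99 (log2 0.74 ± 0.12, adjusted p = 0.000105). Il11 is named here after its values were seen, as the remaining higher member, with 8, 8 and 7 against 23, 24 and 20 (log2 1.43 ± 0.25). In none of these 4 genes did mLIF differ from PBS by the threshold, and hlOSM was higher than PBS in each. Osm was not among the tested genes.

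Receptor genes differed less. Osmr was at 1047, 980 and 1061 with mLIF and at 1264, 1321 and 1732 with hlOSM (log2 0.47 ± 0.10, adjusted p = 0.00175), above a PBS level of 762, 735 and 560, and hlOSM replicate 3 was the highest. Lifr held 349, 334 and 350 and 354, 364 and 373, so that the samples of the conditions did not overlap, but the difference did not pass the threshold (log2 0.08 ± 0.09, adjusted p = 0.612). Il6st was slightly higher, with 1908, 1877 and 2001 against 2112, 2128 and 2152 (log2 0.14 ± 0.05, adjusted p = 0.0421). It missed the threshold with the replicate number as a block (adjusted p = 0.0763) and in 5 of the 6 fits that left out an hlOSM or mLIF sample. The receptor for IL-6 itself, Il6ra, was the single lower member of the list, at 24, 27 and 16 against 15, 9 and 13 (log2 −0.80 ± 0.25, adjusted p = 0.0317, and 0.0755 with the block), and is named after its values were seen. It was a DEG in only 2 of those 6 fits.

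Of the Janus kinases, Jak2 was 426, 406 and 466 with mLIF, overlapping PBS at 408, 433 and 454, and 609, 600 and 574 with hlOSM (log2 0.46 ± 0.06, adjusted p = 8.17e-06). Jak3 was at 28, 31 and 29 and 44, 49 and 49 (log2 0.67 ± 0.15), while Jak1 was at 905, 872 and 930 and 885, 902 and 931 (log2 0.01 ± 0.05, adjusted p = 0.957). In the receptor and kinase list as a whole, 4 of 9 members were higher and 1 was lower. Of 6 STAT genes, 2 were higher. Stat5a read 128, 146 and 140 with mLIF and 222, 210 and 231 with hlOSM (log2 0.68 ± 0.12, adjusted p = 0.000367), whereas its close paralog Stat5b read 331, 303 and 329 and 298, 335 and 315 (log2 −0.02 ± 0.06, adjusted p = 0.862). By the methods of the study, reads that align to several regions were left out, so reads that fit both paralogs were not counted. Stat3 was at 1183, 1173 and 1217 and 1267, 1296 and 1440 (log2 0.16 ± 0.05, adjusted p = 0.0455, and 0.078 with the block), and it passed the threshold in 1 of the 6 fits that left out an hlOSM or mLIF sample. Myc, a further factor downstream of these receptors, held 307, 316 and 357 and 357, 304 and 383 (log2 0.09 ± 0.10, adjusted p = 0.624).

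Socs3 gave the clearest difference among the inhibitors of the pathway, from 199, 209 and 168 in PBS to 369, 363 and 425 in mLIF and 892, 804 and 899 in hlOSM (log2 1.17 ± 0.08 against mLIF, adjusted p = 5.14e-10). The 3 conditions were fully separated, and mOSM at 763, 809 and 875 overlapped hlOSM. Ptpn1, the phosphatase PTP1B that acts on JAK2, was at 215, 176 and 203 and 241, 254 and 240 (log2 0.31 ± 0.08, adjusted p = 0.0063), a call lost in 1 of those 6 fits, the one without mLIF replicate 2. Sh2b3, the JAK2-binding adaptor LNK, was lower at 143, 135 and 131 against 93, 96 and 119 (log2 −0.41 ± 0.10). Cish and Socs2, which respond to STAT5, were at log2 −0.03 ± 0.09 and 0.06 ± 0.08 and did not pass. The other lower member, Usp18, which is named after its values were seen, belongs to the interferon-stimulated genes below.

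**Figure D3:**
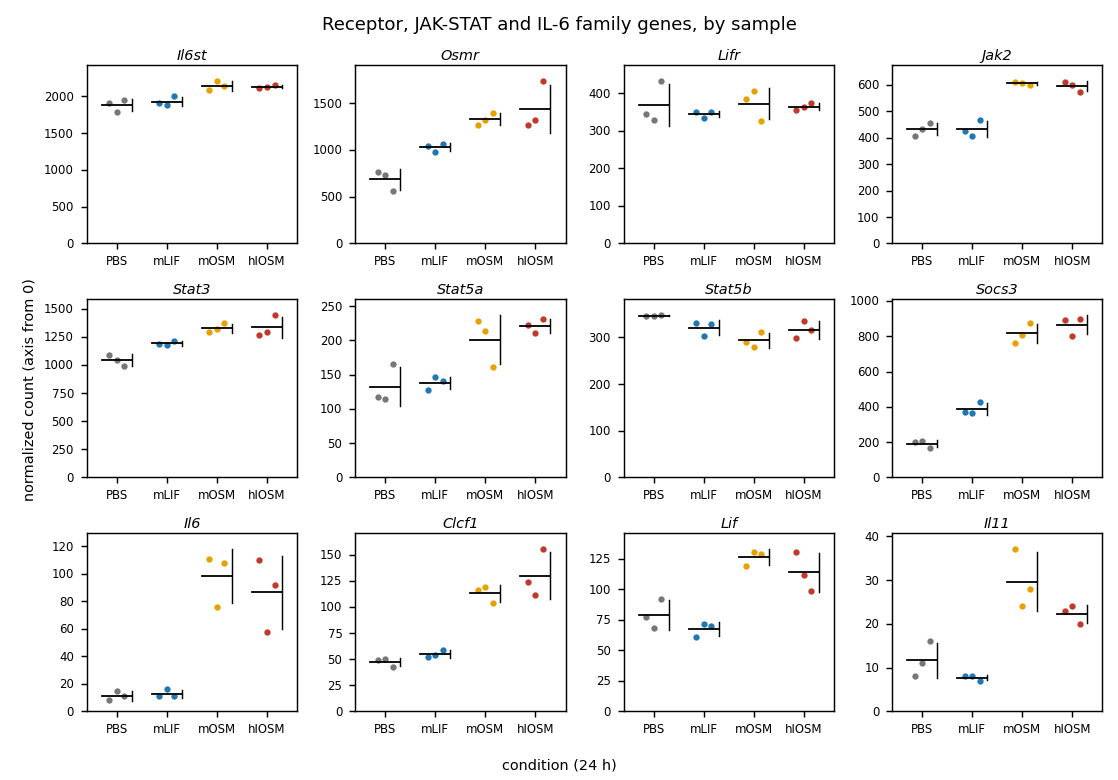
Normalized counts (vertical axes, from 0) of receptor, JAK-STAT and IL-6 family genes in PBS, mLIF, mOSM and hlOSM, 1 point per sample, with the mean as a line and the SD as a vertical bar (n = 3). Socs3, Il6, Clcf1 and Jak2 separate hlOSM from mLIF, while Stat5b overlaps between them.

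STAT dimers bind palindromes of the form TTCNNNGAA. In the RefSeq promoters of GRCm38.p6, from 250 bases before to 50 after each start, these letters occurred in 8.74% of 927 promoters of genes higher with hlOSM, in 5.68% of 1198 promoters of lower genes and in 6.80% of 12537 promoters of all tested genes with an entry. The motif reads the same on both strands. The stretches below come from 4 named genes that were at least 2-fold higher with hlOSM at a mean of at least 50, with the match in capitals, 5′ to 3′ along the gene, and they are shown because these genes are among the strongest in their groups. The Socs3 stretch lies at chr11:117969482-117969550 on the minus strand. The others lie on the plus strand, at chr1:107511403-107511471 for Serpinb2, chr1:164048064-164048132 for Sele and chr5:7960326-7960394 for Steap4. The letters also occurred before the start of Cacna1c and Mef2c, which were lower with hlOSM (log2 −0.57 and −0.47). A match is a description of the letters and not a bound site.
Socs3: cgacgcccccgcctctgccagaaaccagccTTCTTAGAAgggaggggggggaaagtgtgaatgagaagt
Serpinb2: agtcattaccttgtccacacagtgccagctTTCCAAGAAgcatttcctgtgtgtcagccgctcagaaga
Sele: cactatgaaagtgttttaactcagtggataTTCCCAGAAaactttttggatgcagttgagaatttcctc
Steap4: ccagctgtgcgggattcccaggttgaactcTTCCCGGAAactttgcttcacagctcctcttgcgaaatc

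Cytokines, chemokines and adhesion molecules were mostly higher with hlOSM where they differed. Among interleukins and their receptors outside the gp130 family, 7 of 20 tested genes were higher and 1 was lower. Il4ra, the receptor chain shared by IL-4 and IL-13, read 190, 216 and 232 with mLIF and 535, 545 and 543 with hlOSM (log2 1.35 ± 0.07, adjusted p = 1.08e-11). Il1r1, the signaling receptor for IL-1, was at 225, 237 and 246 and 442, 420 and 518 (log2 0.96 ± 0.10). The opposite was found for Il15, a growth factor of NK and memory T cells, which fell from 89, 101 and 169 in PBS to 58, 58 and 42 in mLIF and 29, 22 and 27 in hlOSM (log2 −0.98 ± 0.19 against mLIF, adjusted p = 0.00072). Its hlOSM samples were all below its mLIF samples, and its mLIF samples all below PBS.

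Of 19 chemokine ligands, 7 were higher and 3 lower. Ccl11, the eosinophil attractant eotaxin, was at 5, 7 and 9 with mLIF and 62, 48 and 69 with hlOSM (log2 2.94 ± 0.24, adjusted p = 8.1e-09). The neutrophil attractants Cxcl5 and Cxcl3 were higher as well, with 85, 112 and 84 against 153, 132 and 197 and 12, 19 and 21 against 43, 38 and 49. Lower members were Cx3cl1, the membrane-bound fractalkine (47, 60 and 55 against 25, 25 and 30, log2 −0.99 ± 0.17), and Cxcl16, also membrane-bound (47, 55 and 60 against 38, 27 and 31, log2 −0.74 ± 0.16). Ccl9 overlapped between conditions and was called in only 2 of the 6 fits without an hlOSM or mLIF sample. Leukocyte adhesion molecules had 7 higher and 0 lower of 16 tested genes. Sele, the endothelial E-selectin, was at 47, 60 and 54 and 167, 147 and 196 (log2 1.64 ± 0.14, adjusted p = 1.45e-08). Selp, P-selectin of platelets and endothelium, rose stepwise from 37, 35 and 34 in PBS to 93, 90 and 77 in mLIF and 191, 196 and 203 in hlOSM (log2 1.18 ± 0.11 against mLIF).

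Interferon-stimulated genes were mostly lower with hlOSM where they differed. Of 39 tested members 20 were lower and 3 higher, with a median log2 difference of −0.45. Iigp1, an interferon-inducible GTPase, read 701, 695 and 664 with mLIF and 442, 507 and 500 with hlOSM (log2 −0.51 ± 0.07, adjusted p = 9.45e-06). Ifit1, which binds viral RNA, was at 61, 64 and 49 and 22, 17 and 18 (log2 −1.56 ± 0.21, adjusted p = 9.6e-06), and Ifih1, the RNA sensor MDA5, at 91, 100 and 89 and 58, 42 and 44 (log2 −0.96 ± 0.14). The higher members were all guanylate-binding proteins. They were Gbp2 (36, 41 and 29 against 64, 65 and 66), Gbp4 (12, 18 and 16 against 37, 32 and 56) and, named after its values were seen, Gbp5 (5, 16 and 6 against 34, 22 and 24). The count of lower members was 12 without mLIF replicate 2. Of 19 genes of MHC class I antigen presentation, 0 were higher and 0 lower, with log2 differences from −0.33 to 0.37.

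The list of acute phase proteins and protease inhibitors, which also holds other secreted proteins such as Spp1, had 8 higher and 2 lower of 18 tested members. Without mLIF replicate 2, 5 were higher. Spp1, the secreted phosphoprotein osteopontin, read 134, 150 and 111 with mLIF and 335, 343 and 440 with hlOSM (log2 1.49 ± 0.13, adjusted p = 1.53e-08). Lrg1, a leucine-rich glycoprotein of the acute phase, was at 24, 15 and 19 in PBS, 39, 45 and 46 in mLIF and 114, 118 and 129 in hlOSM (log2 1.45 ± 0.15 against mLIF). Metallothioneins and zinc transporters were higher in 10 of 13 tested genes and lower in 0. Slc39a14, the zinc and iron importer ZIP14, was at 624, 581 and 657 and 881, 918 and 987 (log2 0.58 ± 0.06, adjusted p = 1.98e-07), and the zinc exporter Slc30a1 at 130, 132 and 136 and 169, 176 and 179 (log2 0.39 ± 0.09). The higher count was 5 without hlOSM replicate 3 and 6 without mLIF replicate 1 or 2. Steap4, a metalloreductase, was at 146, 167 and 215 and 461, 447 and 729 (log2 1.61 ± 0.27, adjusted p = 0.000189), and Sod3, the extracellular superoxide dismutase, at 23, 20 and 28 and 91, 83 and 92 (log2 1.87 ± 0.14).

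The extracellular matrix split by gene. Of 39 collagen and collagen-processing genes, 8 were higher and 16 lower. Col3a1, the chain of fibrillar collagen III, read 356, 428 and 286 with mLIF and 848, 719 and 904 with hlOSM (log2 1.22 ± 0.12, adjusted p = 1.68e-07). Col1a2 of collagen I was lower at 393, 406 and 393 against 270, 239 and 223 (log2 −0.71 ± 0.09), and the basement membrane collagen Col15a1 at 317, 316 and 360 against 108, 133 and 104 (log2 −1.52 ± 0.11, adjusted p = 8.19e-10). Both tested chains of collagen VI that the rule names were lower, Col6a1 at 140, 142 and 153 against 48, 46 and 42 (log2 −1.66 ± 0.10) and Col6a2 at 93, 103 and 102 against 43, 46 and 41 (log2 −1.18 ± 0.11). The samples of the 2 conditions did not overlap in any of these 5 chains.

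Of 42 other matrix proteins, 13 were higher and 14 lower. The small proteoglycan decorin (Dcn) was at 251, 254 and 210 with mLIF and 427, 396 and 501 with hlOSM (log2 0.88 ± 0.09), whereas thrombospondin-1 (Thbs1) was at 1177, 1146 and 1368 and 612, 613 and 498 (log2 −1.10 ± 0.10, adjusted p = 2.95e-08) and connective tissue growth factor (Ccn2) at 719, 656 and 620 and 458, 411 and 441 (log2 −0.60 ± 0.07). The lower count was 7 without mLIF replicate 2 and 9 without mLIF replicate 3 or hlOSM replicate 2. Among metalloproteinases and their inhibitors, 7 of 34 were higher and 3 lower. The lower share of 8.82% was near the 9.22% over all genes. The 2 inhibitors Timp1 and Timp2 went apart, with Timp1 at 132, 136 and 150 against 237, 226 and 285 (log2 0.83 ± 0.11) and Timp2 at 138, 150 and 148 against 80, 74 and 77 (log2 −0.91 ± 0.09). Integrin and focal adhesion genes had 11 higher and 5 lower of 36, and besides Itgb8 they included Ptk2b, the calcium-responsive kinase PYK2 (34, 34 and 50 against 102, 106 and 116, log2 1.46 ± 0.18). Itga11, a collagen receptor, was lower (37, 43 and 51 against 14, 13 and 6, log2 −1.96 ± 0.27). The 5 lower members of this list became 2 without hlOSM replicate 1 and 3 without mLIF replicate 1.

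Semaphorins, plexins and neuropilins, which guide axons and vessels, were higher in 10 of 24 tested genes and lower in 1. The 3 with the smallest adjusted p were Sema3e (13, 9 and 9 against 38, 35 and 35, log2 1.72 ± 0.22), Sema6b (23, 23 and 25 against 59, 60 and 70, log2 1.37 ± 0.14) and Sema4c (23, 25 and 34 against 74, 66 and 66, log2 1.32 ± 0.18). Inhbb, the βB subunit of activin and inhibin, led the TGF-β family at 63, 77 and 54 against 252, 240 and 320 (log2 2.05 ± 0.13, adjusted p = 1.63e-10), while the decoy receptor Bambi was lower at 110, 111 and 105 against 51, 54 and 54 (log2 −1.02 ± 0.11). In that family 8 of 47 genes were higher and 9 lower. Igfbp3 and Igfbp5, which bind insulin-like growth factors, differed in opposite directions. Igfbp3 was at 78, 90 and 100 with mLIF and 295, 303 and 332 with hlOSM (log2 1.79 ± 0.13, adjusted p = 1.05e-09) and Igfbp5 at 785, 844 and 859 and 462, 460 and 528 (log2 −0.78 ± 0.08). Fgf23, a phosphate-regulating hormone, was at 8, 13 and 6 and 49, 63 and 68 (log2 2.66 ± 0.35) and was at 2 or less in each PBS sample.

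Retinoid metabolism held some of the largest differences of any list, and in both directions. Of 19 tested genes, 6 were higher and 3 lower. Cyp26b1, which degrades retinoic acid (chr6:84571414-84593908), was with mLIF at 3, 4 and 6 and reached 69, 67 and 116 with hlOSM (log2 3.99 ± 0.32, adjusted p = 9.33e-09). Of the enzymes that make retinoic acid from retinaldehyde, Aldh1a3 was at 6, 6 and 5 and 68, 58 and 73 (log2 3.33 ± 0.19, adjusted p = 4.28e-11) and Aldh1a1 at 165, 163 and 178 and 31, 39 and 27 (log2 −2.36 ± 0.13, adjusted p = 1.22e-11). The 2 enzymes thus differed in opposite directions, and neither had an hlOSM sample in the mLIF range. Rdh10, which makes retinaldehyde from retinol, was higher at 23, 31 and 41 against 137, 100 and 94 (log2 1.79 ± 0.22). Differences of genes with single-digit values depend on the value added before taking the logarithm, here 1.

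Genes of the contractile apparatus, ion channels and energy metabolism were mostly lower with hlOSM where they differed. Of 15 myosin and thick filament genes 8 were lower and 0 higher, and of 16 thin filament genes 7 were lower and 1 higher. Titin (Ttn), the molecular spring of the sarcomere, read 29187, 27991 and 29003 with mLIF and 22374, 24446 and 23871 with hlOSM (log2 −0.29 ± 0.05, adjusted p = 0.000598), below 32687, 32934 and 33150 in PBS. Cardiac troponin T (Tnnt2) was at 1652, 1562 and 1443 and 1276, 1292 and 1292 (log2 −0.27 ± 0.07), and the Z-disc protein cypher (Ldb3) at 943, 976 and 946 and 559, 571 and 611 (log2 −0.72 ± 0.06, adjusted p = 9.23e-09). The major cardiac myosin Myh6 was at 3218, 3132 and 2849 and 3026, 3061 and 2716 and did not differ by the threshold (log2 −0.06 ± 0.08, adjusted p = 0.64), nor did α-actinin-2 (Actn2, log2 −0.14 ± 0.06). Of 26 Z-disc genes, 10 were lower and 2 higher. The lower count of thick filament genes became 4 without hlOSM replicate 3 and 5 without mLIF replicate 2, and that of Z-disc genes 5 without hlOSM replicate 1 and 6 without hlOSM replicate 2 or mLIF replicate 1 or 2.

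Potassium channels had 12 of 20 genes lower and 0 higher, with a median log2 difference of −0.33. Kcnd2, a subunit of the transient outward current, was at 222, 220 and 208 with mLIF, overlapping PBS at 220, 220 and 237, and at 109, 108 and 117 with hlOSM (log2 −0.95 ± 0.07, adjusted p = 3.63e-09). Kcnj5, a subunit of the acetylcholine-activated current, was at 216, 252 and 234 and 137, 143 and 157 (log2 −0.68 ± 0.08). The L-type calcium channel genes Cacna1c and Cacnb2 were lower as well, with 1145, 1116 and 1089 against 713, 769 and 773 (log2 −0.57 ± 0.06, adjusted p = 1.15e-07) and 258, 266 and 276 against 161, 190 and 161 (log2 −0.64 ± 0.09). By contrast the pacemaker channel Hcn4 rose stepwise from 40, 46 and 62 in PBS to 102, 104 and 103 in mLIF and 197, 171 and 165 in hlOSM (log2 0.78 ± 0.12 against mLIF). Among genes of adrenergic and G protein receptor signaling 9 of 24 were lower and 1 was higher. The muscarinic receptor Chrm2 was at 739, 716 and 658 and 385, 420 and 400 (log2 −0.81 ± 0.07, adjusted p = 1.03e-08), and the single higher gene was the cAMP phosphodiesterase Pde4b at 569, 543 and 565 and 907, 873 and 979 (log2 0.72 ± 0.06, adjusted p = 9.86e-09). Genes of sarcoplasmic reticulum calcium cycling were lower in 9 of 22, or 5 without mLIF replicate 1 or hlOSM replicate 1, and phospholamban (Pln) was at 1543, 1367 and 1254 and 1049, 1119 and 1155 (log2 −0.32 ± 0.07). The calcium pump Atp2a2 did not differ by the threshold (log2 −0.06 ± 0.06, adjusted p = 0.593).

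Metabolic regulators of the PGC-1, ERR and PPAR group were lower in 10 of 21 genes and higher in 1, or lower in 6 without mLIF replicate 2. Ppargc1a, the coactivator PGC-1α of mitochondrial biogenesis, read 363, 374 and 382 with mLIF and 225, 225 and 240 with hlOSM (log2 −0.70 ± 0.06, adjusted p = 1.77e-08), and the muscle regulator Perm1 355, 366 and 330 and 194, 222 and 208 (log2 −0.75 ± 0.08). In glucose metabolism, where 4 of 38 genes were higher and 4 lower (2 without mLIF replicate 1 or 2), the shares of 10.5% in each direction were near those over all genes. The insulin-responsive transporter Slc2a4 was lower (224, 192 and 181 against 132, 144 and 140, log2 −0.51 ± 0.10) and Slc2a3 higher (36, 32 and 38 against 54, 63 and 72, log2 0.81 ± 0.17). Similarly, of the 2 isozymes that control fructose 2,6-bisphosphate, Pfkfb2 was lower (144, 123 and 118 against 59, 65 and 61, log2 −1.04 ± 0.10) and Pfkfb3 higher (127, 142 and 142 against 231, 234 and 260, log2 0.81 ± 0.09). Circadian clock genes were lower in 9 of 21 genes, such as Per3 (132, 143 and 145 against 92, 90 and 85, log2 −0.65 ± 0.09), and higher in 1, the repressor Bhlhe41 (195, 206 and 221 against 318, 311 and 326, log2 0.62 ± 0.07). Muscle ubiquitin ligases, ASB and Kelch proteins were lower in 12 of 31, with Asb15 at 166, 183 and 149 and 53, 64 and 74 (log2 −1.38 ± 0.11, adjusted p = 9.38e-09), while Kbtbd11 was 1 of the 2 higher ones. Few or no genes of basic cell machinery passed the threshold. The nuclear-encoded respiratory chain had 0 higher and 0 lower genes of 81, mitochondrial ribosomal proteins 1 and 0 of 77, cytosolic ribosomal proteins 2 and 0 of 79, and the TCA cycle list 0 and 2 of 47, all under the shares of 7.42% and 9.22% over all genes. Small differences could still lean one way. They were above 0 in 70 of the 79 cytosolic ribosomal genes (median log2 0.09) and in 6 of the 47 TCA cycle genes (median −0.08). In the respiratory chain 32 of 81 were above 0, and 43 of 77 among mitochondrial ribosomal proteins.

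**Figure D4:**
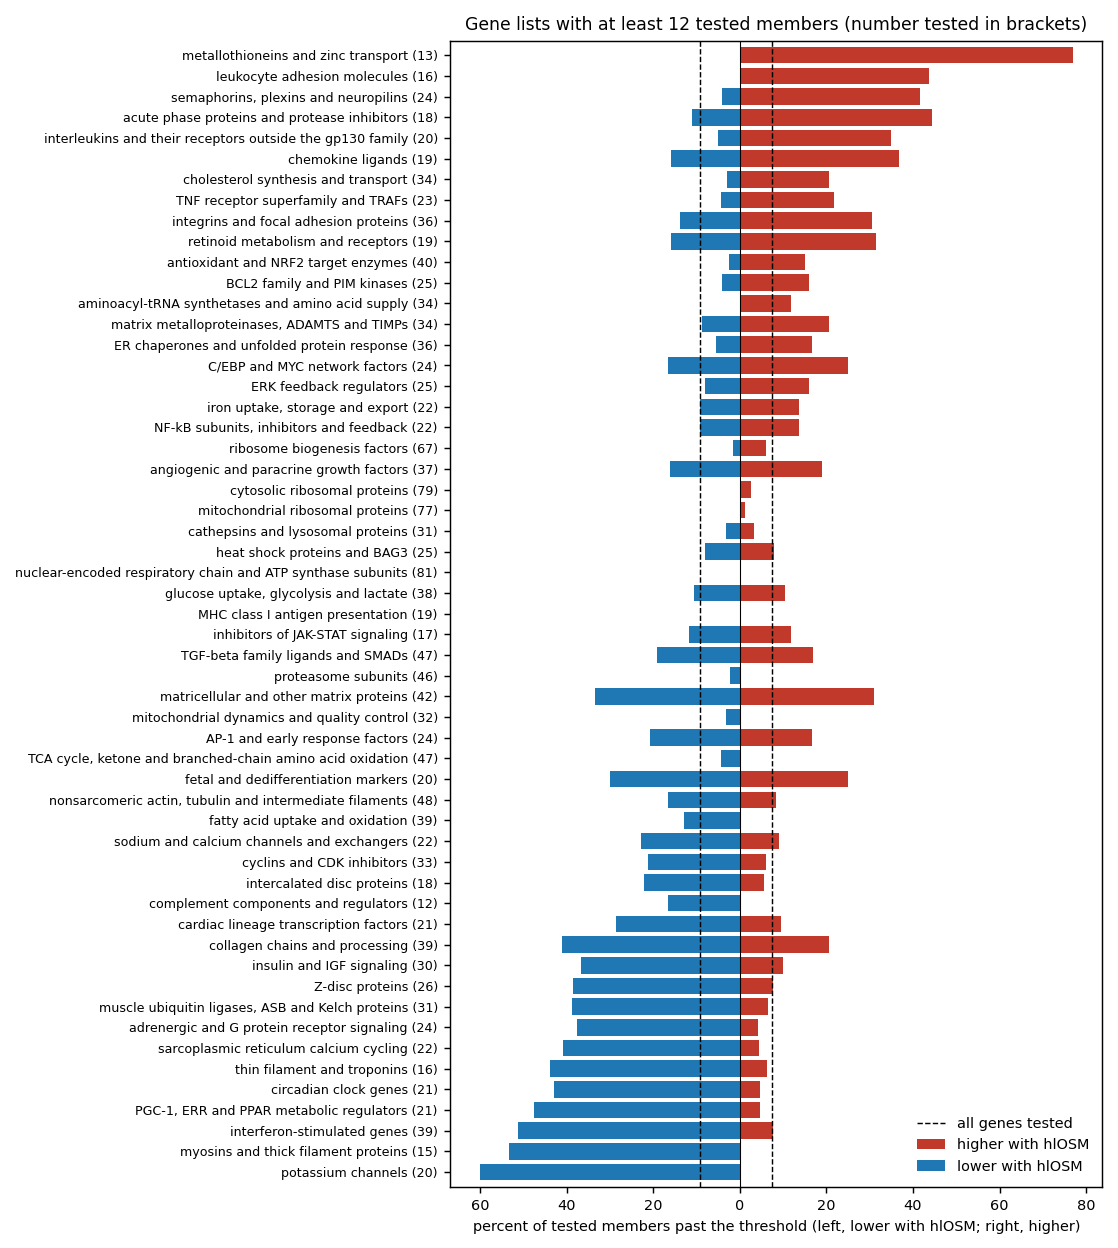
Percent of the tested members of each gene list that were higher (right, red) or lower (left, blue) with hlOSM than with mLIF, for lists with at least 12 tested members, with the number tested in brackets. Dashed lines mark the shares over all tested genes, 7.42% higher and 9.22% lower, and the bars run from metallothioneins and zinc transport with 10 of 13 higher to potassium channels with 12 of 20 lower. The lists were chosen with earlier results of these data known. Of the tested genes of all pathway lists, 27.2% were DEG, against 16.6% of all genes.

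In some genes, which were picked for this order of their samples, mLIF stood at the edge of all 4 conditions. How many tested genes have such an order was not counted. Nid2, the basement membrane protein nidogen-2, was at 135, 133 and 119 with mLIF, lower than the PBS samples at 137, 153 and 196, and at 286, 252 and 242 with hlOSM (log2 1.00 ± 0.10, adjusted p = 1.71e-07). Pecam1, the endothelial adhesion molecule CD31, held 251, 255 and 265 in PBS, 217, 210 and 208 in mLIF and 295, 275 and 289 in hlOSM (log2 0.43 ± 0.07 against mLIF). The difference of mLIF from PBS was log2 −0.28 ± 0.07 (adjusted p = 0.00916) for Pecam1 and −0.31 ± 0.10 (adjusted p = 0.0499) for Nid2. These limma p-values rest on the values by which the genes were picked, and so does the place of PBS between the 2 cytokines. Igfbp4 and the protease gene Adamts9 had the same order of samples, with mLIF at 58, 63 and 53 and 238, 249 and 239 and hlOSM at 101, 93 and 109 and 393, 401 and 413. The reverse order was found in Cav1, the coat protein of caveolae, with 86, 86 and 84 in PBS, 91, 89 and 99 in mLIF and 48, 38 and 46 in hlOSM (log2 −1.07 ± 0.12 against mLIF, adjusted p = 1.57e-06), and in Slc16a10, an aromatic amino acid transporter, with 89, 79 and 93, 107, 94 and 104 and 51, 54 and 58 (log2 −0.89 ± 0.11). For Cav1 and Slc16a10 mLIF did not pass the threshold against PBS (adjusted p = 0.573 and 0.213).

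**Figure D5:**
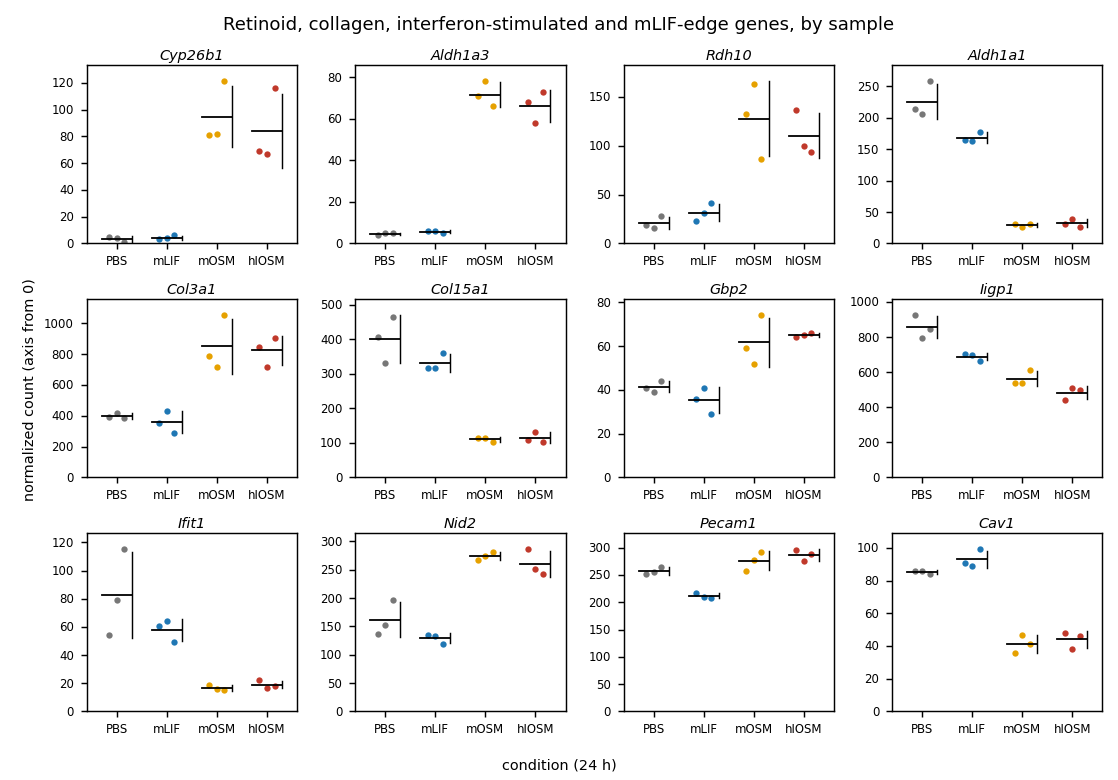
Normalized counts (vertical axes, from 0) of retinoid, collagen and interferon-stimulated genes and of 3 genes with mLIF at the edge of all conditions, 1 point per sample, with the mean as a line and the SD as a vertical bar (n = 3). Aldh1a3 is at 6, 6 and 5 with mLIF and 68, 58 and 73 with hlOSM and Aldh1a1 at 165, 163 and 178 and 31, 39 and 27, so that the 2 retinaldehyde dehydrogenases lie in opposite order.

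Markers of the cells in the cultures moved with the comparison. The summed normalized counts of 12 cardiomyocyte markers ranged from 45474 to 47569 with mLIF and from 38105 to 40685 with hlOSM, and 5 of them were lower (3 without mLIF replicate 1, mLIF replicate 2 or hlOSM replicate 1). Titin (Ttn, log2 −0.29) made up most of these sums, so they mainly follow that gene. The median log2 difference over the 12 markers was −0.11, and Myh6 and Actn2 did not pass the threshold. Smooth muscle and pericyte markers were lower in 7 of 9 tested genes, with sums of 1772 to 1819 against 1270 to 1351. Acta2, smooth muscle α-actin, was at 199, 154 and 195 and 86, 90 and 68 (log2 −1.16 ± 0.13, adjusted p = 1.01e-06), and Tagln, the actin-binding protein transgelin, at 97, 89 and 112 and 43, 39 and 27 (log2 −1.45 ± 0.16). Endothelial markers were higher in 5 of 10 and lower in 0, with sums of 1423 to 1471 against 1728 to 1912. VE-cadherin (Cdh5) was at 234, 219 and 225 and 328, 296 and 347 (log2 0.51 ± 0.07, adjusted p = 1.53e-05). Sele, Selp, Thbd and Pecam1 above are genes of endothelial cells as well.

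Fibroblast markers went both ways, with 2 higher and 5 lower of 10, and sums of 2308 to 2454 against 2451 to 2670. Pdgfra was lower at 597, 576 and 631 against 416, 424 and 384 (log2 −0.56 ± 0.06) while Col3a1 and Dcn were the higher members. Of 5 tested macrophage markers, 1 was higher, the lysosomal Cd68 at 86, 70 and 88 against 118, 109 and 170 (log2 0.68 ± 0.16), and the sums overlapped at 288 to 336 against 327 to 394. Schwann and neuronal markers had 1 lower of 3 tested. None of the lymphocyte and granulocyte markers was tested, and their summed values were at most 7 in any sample. In bulk samples, fewer cells of a type and less RNA per cell cannot be told apart, and the part of these cells in the differences of the gene lists was not tested.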

How the data were processed

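RNA sequencing was performed on 12 samples of cardiomyocytes, 3 each of PBS, mLIF, mOSM and hlOSM, with a SMARTer Stranded library kit per the labels. Reads were processed with STAR 2.7.7a and featureCounts 1.6.5 on mm10, as listed in the submitters' processing notes. The strand setting of the counting is not given in the sources used here. The authors deposited 1 table of normalized counts rounded to whole numbers, which were treated here as a score, since the normalization is not named. Because they are not reads, the depth per sample is unknown and no counting error is given, although the design called for a count test had they been raw.

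Genes with a value of at least 10 in at least 3 samples were kept. Values were taken as log2(value + 1) and fitted with limma 3.58.1 in R 4.3.3 (lmFit, eBayes with trend) as 4 conditions in 1 fit. The hlOSM minus mLIF contrast was adjusted by Benjamini-Hochberg over all 13184 genes, two-sided, and DEG had an adjusted p under 0.05. Errors beside log2 differences are standard errors on the log2(value + 1) scale, which understates differences of low genes. The procedure was run on simulated data with independent spread in each sample. Such data cannot show whether the p-values hold if an effect of the replicate number was removed before deposit.

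Genes were named by a rule: the 10 largest differences in each direction at a mean of at least 50 without overlap, the 5 smallest adjusted p in each direction, up to 3 genes per direction in each gene list at a mean of at least 20, a fixed set of pathway and cardiac genes, genes with PBS between the other conditions or with mLIF at an edge, and the most abundant genes with at least a 2-fold difference. Of the 271 genes the rule gives, 147 are in the text, and this selection was made after their values were seen, as were 4 genes outside the rule. Some genes the rule gives are not reported here. The 59 pathway lists, the 7 marker lists and the members were chosen with earlier results of these data known. Of the tested genes in the pathway lists, 27.2% were DEG, against 16.6% over all genes. How far the choice of members raised the shares of the lists was not tested. Lists are described by counts without a test. Promoter sequences are those of RefSeq for GRCm38.p6, and exon overlap was taken from the GENCODE M21 annotation. Alternatives covered the pseudocount, the filter, the scaling, a robust fit, the samples in the fit, the replicate block, the thresholds and each sample left out. Leaving out samples for the gene lists was added after seeing the data.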

Additional observations from a re-analysis of the deposited data

How the results depend on the processing

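No named DEG changed direction under any alternative. The order of the 2 gene counts did change, with 889 higher and 879 lower genes without mLIF replicate 3. The counts of 978 higher and 1216 lower genes became 574 and 668 at an adjusted p under 0.01, 401 and 493 with a minimum of 1.5-fold, and 182 and 185 with a minimum of 2-fold, where the stricter threshold itself removes genes. With 1 sample left out they ranged from 672 (without mLIF replicate 2) to 1052 (without PBS replicate 3) higher and from 857 (without mLIF replicate 2) to 1313 (without mOSM replicate 3) lower. Under the other pseudocounts, filters and scalings, the robust fit and the fit of the 6 samples alone they lay between 805 and 1081 higher and between 931 and 1304 lower. With the replicate block they were 724 and 878. Neither labels nor methods tie samples of the same number together. Over 6626 genes with a mean of at least 100, deviations of same-numbered hlOSM and mLIF samples from their condition means correlated at −0.27, −0.15 and 0.02. In these genes replicate 3 minus replicate 1, averaged over the 4 conditions, had an SD over genes of 0.0019 on the log2 scale, and replicate numbers took 5.86% of the variation within conditions, against 25% without any effect of the number. An effect of the number may have been removed before deposit, which was not tested. Values centred in this way pull such correlations to 0 or below, so they cannot show whether the numbers paired the samples. The fit without the block counts degrees of freedom that such values may lack, and its p-values may be too small. Of 137 named DEG, 123 passed the threshold under all alternatives and 125 in all 6 fits without an hlOSM or mLIF sample. The 5 lost with the block were Stat3, Il6st, Il6ra, Junb and Esrra. Titin lost its call under quantile rescaling, and Actn2 gained one in the fit of the 6 samples alone and without mOSM replicate 3. Of 390 counts of list members under the block, the filter at 50 and the rescaling by trimmed mean of M-values, 44 changed by over 1.5 times. Counts of 1 or 2 list members often changed when 1 sample was left out.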

Other observations

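Among angiogenic and paracrine growth factors, 7 of 37 tested genes were higher with hlOSM and 6 lower. Angptl4, an inhibitor of lipoprotein lipase, read 234, 225 and 303 with mLIF and 489, 562 and 715 with hlOSM (log2 1.20 ± 0.19, adjusted p = 9.98e-05). Apln, the ligand of the apelin receptor, was at 51, 65 and 57 in PBS, 30, 37 and 32 in mLIF and 79, 52 and 62 in hlOSM (log2 0.93 ± 0.15 against mLIF), so that hlOSM overlapped PBS and mLIF lay below both. Adm, the vasodilator adrenomedullin, was lower at 98, 81 and 71 against 39, 33 and 57 (log2 −0.96 ± 0.17), and the TIE2 ligand Angpt1 at 77, 67 and 59 against 30, 33 and 28 (log2 −1.13 ± 0.18). Of the feedback regulators of ERK signaling 4 of 25 were higher and 2 lower. The lower share of 8% was near the 9.22% over all genes. The phosphatase gene Dusp6 was higher (238, 227 and 210 against 271, 266 and 322, log2 0.34 ± 0.08), whereas Dusp4 was lower (100, 99 and 92 against 45, 48 and 35, log2 −1.18 ± 0.13, adjusted p = 1.35e-06).

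Transcription factors of the cardiac lineage were lower in 6 of 21 genes and higher in 2. Mef2c, an activator of muscle genes, was at 559, 553 and 539 and 373, 408 and 409 (log2 −0.47 ± 0.06, adjusted p = 4.89e-06), and Meis1, a homeobox factor linked to cell cycle exit of cardiomyocytes, was higher at 457, 394 and 471 and 602, 595 and 648 (log2 0.48 ± 0.08). Fetal and dedifferentiation markers split, with 5 higher and 6 lower of 20. Nes, the intermediate filament nestin, read 368, 384 and 379 with mLIF and 807, 758 and 924 with hlOSM (log2 1.13 ± 0.16), and Runx1 181, 185 and 229 and 302, 326 and 433 (log2 0.82 ± 0.17), while the slow myosin Myh7 was lower at 376, 394 and 394 against 330, 334 and 283 (log2 −0.30 ± 0.08). The natriuretic peptide genes Nppa and Nppb did not differ by the threshold, at log2 −0.19 ± 0.10 and 0.01 ± 0.09. Of the early response factors, Egr3 was lower at 65, 57 and 63 against 35, 32 and 29 (log2 −0.93 ± 0.14), and in the AP-1 and early response list 4 were higher and 5 lower of 24, with 0 higher without hlOSM replicate 3 and 1 or 2 higher without hlOSM replicate 1 or any mLIF sample. Hspb1, a small heat shock protein, rose stepwise from 57, 54 and 44 in PBS to 118, 108 and 119 in mLIF and 160, 161 and 198 in hlOSM (log2 0.58 ± 0.11 against mLIF), and 2 of 25 heat shock genes were higher and 2 lower. These heat shock counts are 8% in each direction, near the 7.42% higher and 9.22% lower over all genes. Myh7 lost its call without hlOSM replicate 3, and Runx1 under a robust estimate of the spread. Exons of other genes cover 61.5% of the exonic bases of Nppa on the other strand.

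The list labelled cyclins and CDK inhibitors also holds other cell cycle and stress genes. Of its 33 tested genes, 2 were higher (6.06%) and 7 lower (21.2%), or 3 lower without mLIF replicate 3 and 4 without hlOSM replicate 1 or 2. Besides Ccnd1, the lower members included Top2a, the topoisomerase of dividing cells (254, 284 and 285 with mLIF against 222, 215 and 210 with hlOSM, log2 −0.34 ± 0.08), and the mitotic kinase Cdk1 (29, 30 and 37 against 23, 19 and 14, log2 −0.77 ± 0.21), and the higher members were the stress-induced Gadd45g (172, 163 and 166 against 236, 218 and 268, log2 0.52 ± 0.08) and Gadd45a (217, 189 and 225 against 275, 283 and 287, log2 0.42 ± 0.08). In cholesterol synthesis and transport 7 of 34 were higher and 1 lower, or 3 higher without hlOSM replicate 3 and 4 without mLIF replicate 2 or 3. Star above was among the higher genes. Antioxidant enzymes had 6 higher (15%) and 1 lower (2.5%) of 40, against 7.42% and 9.22% over all genes. The higher count was 2 without mLIF replicate 2 and 3 without hlOSM replicate 3. ER chaperones and unfolded protein response genes had 6 higher (16.7%) and 2 lower (5.56%) of 36, with 3 higher without mLIF replicate 3. In the latter, the transcription factor Xbp1 was higher (240, 231 and 247 against 314, 281 and 328, log2 0.36 ± 0.07) and Ddit3, the stress factor CHOP, lower (143, 137 and 147 against 130, 108 and 102, log2 −0.33 ± 0.10). Fatty acid uptake and oxidation had 0 higher and 5 lower of 39, and the lower count was 1 without hlOSM replicate 2, 2 without mLIF replicate 3, 3 without mLIF replicate 1 and 8 without hlOSM replicate 3. The 5 lower genes are 12.8% of that list, against 9.22% over all genes.

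Of the remaining genes fixed by name, 5 of 8 were DEG. Cebpd, an acute phase transcription factor, was at 112, 138 and 152 and 191, 168 and 232 (log2 0.55 ± 0.16, adjusted p = 0.0222), and Junb, an AP-1 subunit, at 335, 330 and 327 and 386, 355 and 390 (log2 0.19 ± 0.06, adjusted p = 0.0414). Cebpd was a DEG in 4 of the 6 fits without an hlOSM or mLIF sample and not under a robust estimate of the spread, and Junb in 1 of the 6. Cebpb, Pim1 and Ppara did not pass, at log2 0.16 ± 0.08, −0.18 ± 0.09 and −0.34 ± 0.14. The calcium release channel Ryr2 read 5487, 5359 and 5229 and 4639, 4891 and 4891 (log2 −0.16 ± 0.05, adjusted p = 0.0304) and the nuclear receptor Esrra 155, 155 and 153 and 130, 127 and 130 (log2 −0.26 ± 0.08, adjusted p = 0.0238). Ryr2 was a DEG in 2 of those 6 fits, Esrra in 1, and Cdk1 and Ddit3 above in 4 and 2. In the fit with the replicate block the adjusted p was 0.0909 for Junb and 0.077 for Esrra. Cxcl9, a chemokine induced by interferon-γ, had low values of 4, 5 and 3 and 12, 14 and 12 (log2 1.47 ± 0.38, adjusted p = 0.00918). Further short motifs were counted in the same promoters, on both strands. TGANTCA, bound by AP-1, occurred in 7.12% of promoters of higher genes, 7.18% of lower genes and 5.16% of all tested genes, and GGGNNTTCC, a pattern of NF-kB sites, in 8.31%, 5.43% and 7.23%.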
